A study of Homo sapiens with 6 samples.

Results

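The transcripts of 10 circadian clock genes, CLOCK, NPAS2, PER1, PER2, PER3, CRY1, CRY2, NR1D1, NR1D2 and DBP, were examined in U87-MG, an established cell line from a human glioblastoma. The genes were taken by symbol from the deposited table of 61806 genes, and each of the 10 had a count in every library. Total RNA had been sequenced in 6 libraries, 3 of wild-type cells given a negative control (NC) and 3 of cells labelled GRIK1 siRNA, whose genotype is labelled as a knockdown of the kainate receptor subunit GRIK1. The sample titles name an siRNA and number the knockdown libraries 1, 2 and 3, and the series description names an shRNA. The labels do not say whether these numbers stand for replicates or for siRNA sequences. The study compared siRNA sequences and states that the most efficient one served its later experiments. The sequencing comes after that statement, but the sequence given to the sequenced cells is not named there. Nothing in the labels says that the libraries of a group came from separate cultures, so p-values measure the spread between these libraries, which may be technical. The time of harvest, a serum shock or another step that sets the phase of the clock is not given in the sources used here, and each library is a single time point.

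The circadian clock is a feedback loop of transcription that runs in most cells. CLOCK or its paralog NPAS2 pairs with BMAL1 and activates genes with an E-box in their promoters, among them the PER and CRY genes, and the PER and CRY proteins return to the nucleus and repress that activity. In a second loop the nuclear receptors REV-ERBα (NR1D1) and REV-ERBβ (NR1D2) repress the BMAL1 gene, while the ROR receptors activate it. DBP is an output factor of the loop, which binds D-boxes. In a culture that has not been synchronized, cells run out of phase with each other, so a bulk library averages over phases, and fewer cells with a transcript cannot be told apart from less of it per cell.

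Total counts per library lay between 11099909 and 14006968, and edgeR's TMM scaling factors between 0.891 and 1.033. NC library 3 stood apart. Ribosomal protein genes took 8.45% of its counts, against 4.35% to 4.99% in the other 5 libraries, and edgeR's common dispersion was 0.0391 with it and 0.00298 without it. The tests between the groups are therefore given with and without that library for the clock genes. GRIK1 was not lower in the libraries labelled GRIK1 siRNA, with 0.38, 0.19 and 0.13 FPKM (fragments per kilobase of exonic size and of library size) in NC libraries 1, 2 and 3, against 0.29, 0.37 and 0.36 FPKM in the others. As a difference of mean log2(FPKM + 1), a scale that makes changes at low levels look smaller, it was 0.12 higher (two-sided exact permutation test, p = 0.4, the smallest p of this design being 0.1). These values rest on 8 to 20 counts per library, and the mean of 0.287 FPKM was below the 0.5 FPKM required of genes tested here. At so few counts they cannot settle whether GRIK1 was reduced. The study reports that GRIK1 was knocked down efficiently in U87-MG cells, without tying those measurements to the sequenced libraries. The group is called by its label below, and no direction is tied to a loss of GRIK1. Of 7 markers listed for a glioblastoma line, VIM (825 to 1076 FPKM) and CD44 (50.8 to 71.6 FPKM) were abundant, GFAP, NES, OLIG2, SOX2 and S100B each stayed at or below 0.83 FPKM, and CDKN2A and CDKN2B, which lie in a deletion of this line, stayed at or below 0.04 FPKM. Of 6 markers of other cells, EPCAM, KRT8 and SNAP25 reached 2.09, 3.97 and 2.15 FPKM and PTPRC, PECAM1 and MBP at most 0.07, and the summed level of the 6 ranged from 6.52 to 7.62 FPKM in the NC libraries and from 5.49 to 6.63 in the others. The part of these transcripts in the results was not tested.

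With all 6 libraries, none of the 10 clock genes passed the test between the groups, and without NC library 3 the same test called 4 of them, PER1, PER2, PER3 and NR1D1, all higher in the libraries labelled GRIK1 siRNA. The other 6, CLOCK, NPAS2, CRY1, CRY2, NR1D2 and DBP, passed in neither fit. The test was edgeR's quasi-likelihood test on the counts, with Benjamini-Hochberg adjustment over 15870 genes and a call at an adjusted p under 0.05. With all 6 libraries it called 0 of 10 clock genes, where 3.09% of all genes were called. At an unadjusted p under 0.05 there were 4 of 10, the same 4 genes, where 25.1% of all genes were. DESeq2 called 2 of the 10, PER2 and NR1D1, where it called 10.6% of all genes. Without NC library 3, 35.2% of all genes were called, so that 4 of 10 lay close to the share of the whole table. By direction, 4 of 10 were called higher and 0 lower, where 16.9% of all genes were called higher and 18.3% lower. No clock gene was called with an absolute log2 fold change over 1 in either fit, where 1.41% of all genes were with 6 libraries and 3.09% were without NC library 3.

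Over the 10 genes the median log2 fold change came to 0.20 with 6 libraries and 0.14 without NC library 3, against -0.02 and 0.0071 over all genes tested. The 3 libraries labelled GRIK1 siRNA all lay above the 3 NC libraries for 4 of the 10 clock genes on normalized CPM (counts scaled to library size), again PER1, PER2, PER3 and NR1D1, where this held for 19.4% of all genes. Such a separation in either direction held for 38.5% of all genes, and no clock gene was separated in the other direction.

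**Figure D1:**
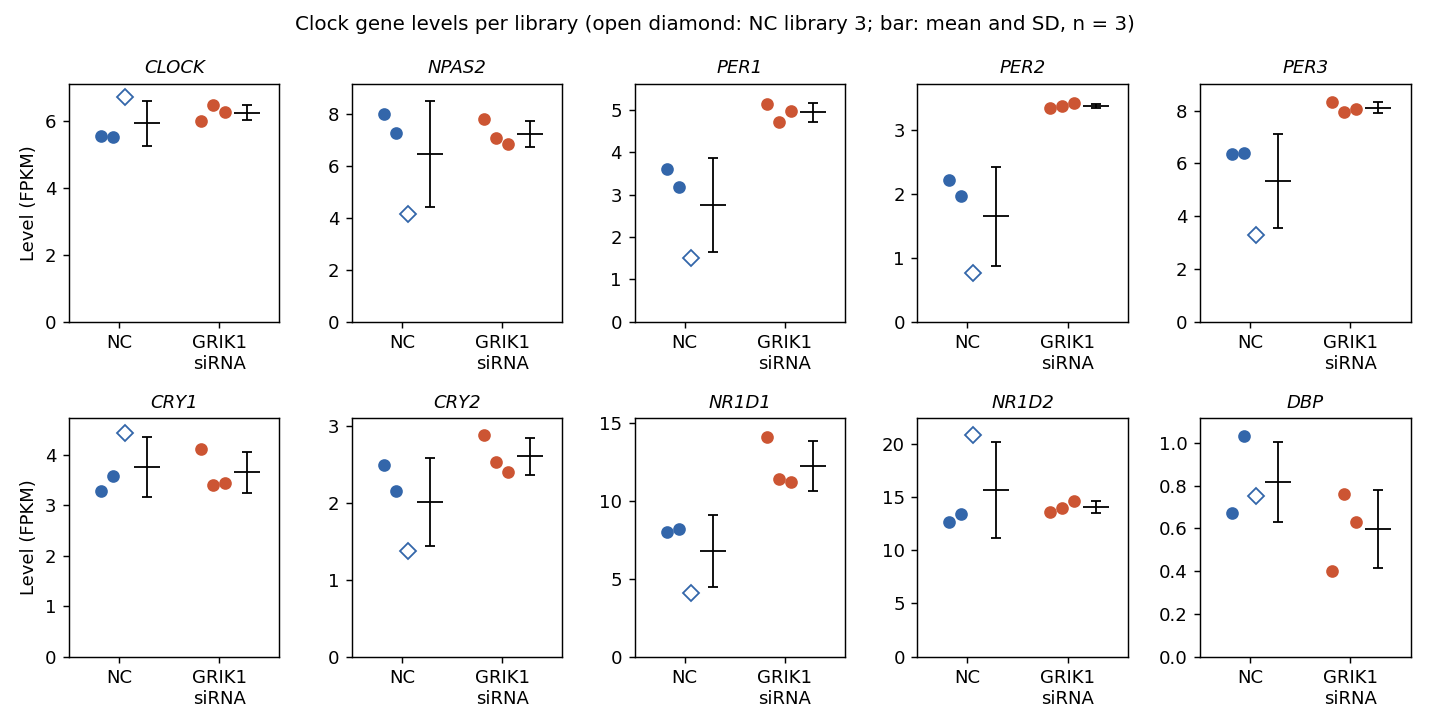
Levels of the 10 clock genes in FPKM (vertical axes, each from 0) in each NC library (blue) and each library labelled GRIK1 siRNA (red), with the mean and SD of each group in black (n = 3). NC library 3 (open diamond) is the lowest of the 6 libraries for PER1, PER2, PER3, CRY2, NR1D1 and NPAS2 and the highest for CLOCK, CRY1 and NR1D2.

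The PER genes encode repressors that accumulate and decay once per cycle. PER2 (ENSG00000132326, chromosome 2 from 238244044 to 238290102, GRCh38) was at 2.22, 1.96 and 0.76 FPKM in NC libraries 1, 2 and 3, and at 3.34, 3.37 and 3.41 FPKM in the libraries labelled GRIK1 siRNA. The latter 3 lay within a narrow band above all NC libraries, and NC library 3 lay far below the other NC libraries. The log2 fold change was 0.98 (SE, its standard error, 0.31, adjusted p = 0.118 from edgeR), or 1.98-fold, and without NC library 3 it was 0.67 (SE 0.11, adjusted p = 0.00012), or 1.59-fold. This was the largest value among the 10 genes in both fits.

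PER1 (ENSG00000179094, chromosome 17 from 8140472 to 8156506), the PER gene that acute signals such as glucocorticoids and cyclic AMP also induce, was at 3.6, 3.17 and 1.5 FPKM in the NC libraries and at 5.15, 4.71 and 4.98 FPKM in the libraries labelled GRIK1 siRNA. The groups did not overlap. Its log2 fold change was 0.78 (SE 0.26, adjusted p = 0.126 from edgeR), and 0.52 without NC library 3 (SE 0.10, adjusted p = 0.000377). PER3 (ENSG00000049246, chromosome 1 from 7784291 to 7845177), a PER protein with a lesser role in keeping the rhythm, was the most abundant of the 3. It was at 6.35, 6.4 and 3.28 FPKM in the NC libraries and at 8.34, 7.93 and 8.06 FPKM in the others, again without overlap. Its log2 fold change was 0.54 (SE 0.21, adjusted p = 0.172) and 0.32 without NC library 3 (SE 0.07, adjusted p = 0.000956).

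The 3 PER genes thus kept 1 order in all libraries, with PER3 above PER1 and PER1 above PER2. Their summed level was 12.2, 11.5 and 5.54 FPKM in NC libraries 1, 2 and 3, against 16.8, 16.01 and 16.5 FPKM in the libraries labelled GRIK1 siRNA. PER2 made up 18.2%, 17.0% and 13.7% of that sum in the NC libraries, against 19.9%, 21.1% and 20.7% in the other group. The share of PER3 went the other way, from 52.2%, 55.5% and 59.2% in the NC libraries to 49.6%, 49.5% and 49.0%. The PER1 share, 27.1% to 29.6% in the NC libraries and 29.4% to 30.6% in the others, overlapped between the groups. These shares are descriptions, without a test.

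NR1D1 (ENSG00000126368, chromosome 17 from 40092793 to 40100589) encodes REV-ERBα, the heme-binding repressor of the second loop. It was at 8.02, 8.2 and 4.1 FPKM in NC libraries 1, 2 and 3 and at 14.1, 11.5 and 11.3 FPKM in the libraries labelled GRIK1 siRNA. The groups did not overlap, and library 1 was the highest of the latter. The log2 fold change was 0.79 (SE 0.23, adjusted p = 0.101 from edgeR), or 1.73-fold, the smallest adjusted p among the 10 genes with all libraries. Without NC library 3 it was 0.57 (SE 0.11, adjusted p = 0.000648), or 1.48-fold. NR1D1 shares 1075 bases with THRA on the opposite strand, and whether the counting used strand is not given in the sources used here, so reads of the shared stretch are uncertain. THRA had 395 to 431 counts in the NC libraries and 393 to 542 in the others, with a log2 fold change of -0.04 (SE 0.14, adjusted p = 0.885), and -0.06 without NC library 3 (adjusted p = 0.697).

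NR1D2 (ENSG00000174738, chromosome 3 from 23945286 to 23980617), the gene of the paralog REV-ERBβ, had another pattern. It was at 12.7, 13.4 and 20.8 FPKM in the NC libraries and at 13.6, 14 and 14.7 FPKM in the others. NC library 3 was the highest of the 6 here, and the libraries labelled GRIK1 siRNA lay above NC libraries 1 and 2 in FPKM but overlapped them on normalized CPM. For NR1D2 the log2 fold change was -0.26 (SE 0.24, adjusted p = 0.509) with all libraries and 0.08 (SE 0.06, adjusted p = 0.327) without NC library 3. NR1D1 accordingly made up 38.8%, 37.9% and 16.5% of the summed FPKM of both receptors in NC libraries 1, 2 and 3, against 51%, 45.0% and 43.4% in libraries 1, 2 and 3 labelled GRIK1 siRNA. NKIRAS1 lies on the opposite strand and shares 1306 bases with NR1D2, with 190 to 327 counts per library.

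**Figure D2:**
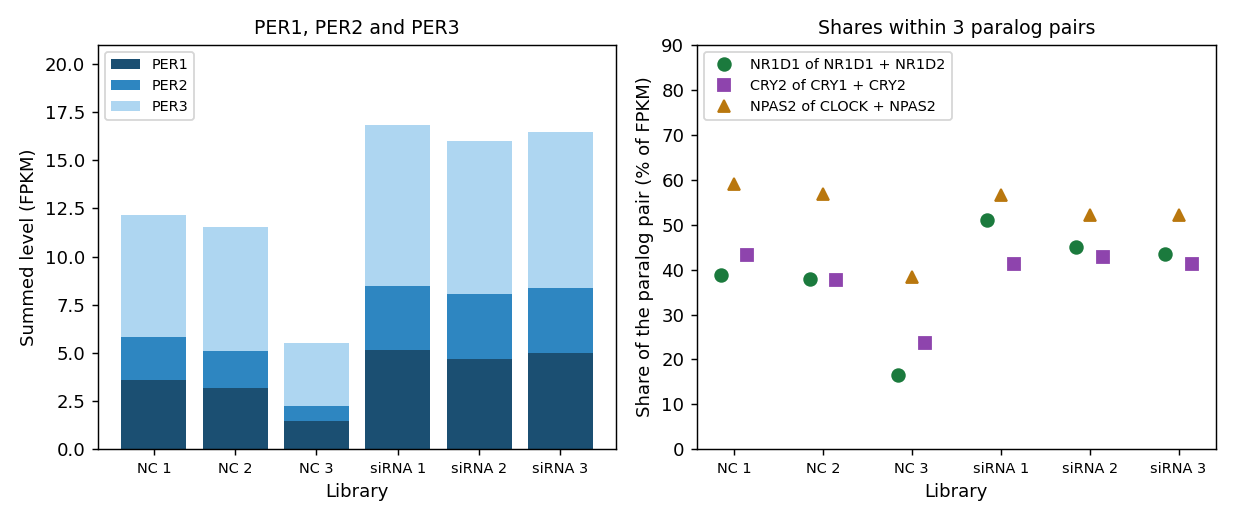
Left, FPKM of PER1, PER2 and PER3 stacked for each library. Right, for each library, the share in percent of NR1D1, CRY2 and NPAS2 in the summed FPKM of their paralog pair. The stacked bars are between 16.01 and 16.8 FPKM in the libraries labelled GRIK1 siRNA and lowest, at 5.54 FPKM, in NC library 3, where all 3 shares are lowest too.

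Upstream stretches of promoters are shown for PER1, PER2 and NR1D1, as 3 of the genes called without NC library 3, and for NR1D2 as the paralog that was not. Stretches were taken only where they hold an E-box or E-prime box. PER3, also called, and the first annotated start of NR1D2 have neither in their windows and are not shown. The stretches were taken from RefSeq (GRCh38.p14) and read 5′ to 3′ along the transcript. They cover the bases from 220 to 71 before the RefSeq start. For PER1 and PER2 that start, at 8152404 and 238288610, differs from the gene end in the deposited annotation, at 8156506 and 238290102. The stretches of PER1, PER2 and NR1D2 therefore lie inside the gene bounds given above. Capitals mark an E-box, CACGTG, or an E-prime box, CACGTT, which reads AACGTG where it lies on the opposite strand. The stretches are chr17:8152475-8152624 (minus strand) for PER1, chr2:238288681-238288830 (minus strand) for PER2, chr17:40100660-40100809 (minus strand) for NR1D1, and chr3:23945901-23946050 (plus strand) for NR1D2, at the second of 2 annotated starts.
PER1: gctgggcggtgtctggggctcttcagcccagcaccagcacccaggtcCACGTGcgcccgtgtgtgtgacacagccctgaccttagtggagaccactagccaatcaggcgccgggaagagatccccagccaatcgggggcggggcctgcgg
PER2: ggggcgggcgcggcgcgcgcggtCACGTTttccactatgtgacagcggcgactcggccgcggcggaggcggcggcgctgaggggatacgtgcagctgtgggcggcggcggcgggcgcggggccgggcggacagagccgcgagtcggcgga
NR1D1: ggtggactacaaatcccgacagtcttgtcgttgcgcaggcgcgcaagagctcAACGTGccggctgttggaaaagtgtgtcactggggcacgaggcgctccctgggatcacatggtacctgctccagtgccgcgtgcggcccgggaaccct
NR1D2: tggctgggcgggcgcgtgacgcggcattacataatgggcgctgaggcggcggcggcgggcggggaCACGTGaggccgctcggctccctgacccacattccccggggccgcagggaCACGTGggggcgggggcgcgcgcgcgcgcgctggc

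RefSeq windows of 300 bases, 250 before to 50 after a start, matched all 10 genes, with 14 windows in all, and both strands were searched. PER1 held 1 E-box and the second window of NR1D2 held 2, while PER2 and NR1D1 each held 1 E-prime box. CRY1, and 1 of 2 windows each of CLOCK and CRY2, also held an E-prime box. In total 7 of the 14 windows had an E-box or E-prime box, against 12.2% of 35116 RefSeq promoter windows of this length (7.26% with an E-box, 5.34% with an E-prime box). The difference was not tested. The genes were picked as clock genes, and E-boxes in PER and CRY promoters are part of the loop described above. Both windows of PER3 overlap each other. The 14 windows held 46.3% to 81.0% G and C, and the RefSeq windows were not matched for this. The core AGGTCA of the ROR and REV-ERB element was in 3 windows, 1 of PER1 and both of CRY2, against 13.8% of all windows. PER3, NPAS2 and DBP held none of the 3 motifs in these windows. The genes with an E-box or E-prime box thus include both genes called without NC library 3 and genes that were not, and PER3 was called with neither in its windows. A match describes the letters only.

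The CRY genes encode the partners with which PER proteins repress CLOCK and BMAL1. CRY2 (ENSG00000121671, chromosome 11 from 45847118 to 45883248) was at 2.5, 2.16 and 1.38 FPKM in the NC libraries and at 2.88, 2.54 and 2.41 FPKM in the others. NC library 3 was the lowest, and NC library 1 lay within the range of the libraries labelled GRIK1 siRNA. CRY2 differed by a log2 fold change of 0.30 (SE 0.19, adjusted p = 0.355) and 0.14 without NC library 3 (SE 0.12, adjusted p = 0.421). CRY1 (ENSG00000008405, chromosome 12 from 106991364 to 107093549) was at 3.28, 3.57 and 4.43 FPKM in the NC libraries and at 4.12, 3.4 and 3.43 FPKM in the others, so that the groups overlapped. CRY1 differed by a log2 fold change of -0.15 (SE 0.19, adjusted p = 0.657), and 0.07 without NC library 3 (SE 0.12, adjusted p = 0.722). CRY2 made up 43.3%, 37.7% and 23.8% of the summed FPKM of both in the NC libraries, against 41.1%, 42.8% and 41.3% in the other group.

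CLOCK and NPAS2 encode the activators that pair with BMAL1. CLOCK (ENSG00000134852, chromosome 4 from 55427903 to 55546909) was at 5.55, 5.53 and 6.7 FPKM in the NC libraries and at 6.0, 6.46 and 6.27 FPKM in the others. The libraries labelled GRIK1 siRNA lay between NC libraries 1 and 2 on the one side and NC library 3 on the other. For CLOCK the log2 fold change was -0.02 (SE 0.15, adjusted p = 0.938), and 0.15 without NC library 3 (SE 0.06, adjusted p = 0.0794). Only with total-count scaling in place of TMM and without NC library 3 did CLOCK pass, at 0.17 (adjusted p = 0.0404 from edgeR). TMEM165 on the opposite strand shares 25495 bases of the locus and had 2796 to 3483 counts. NPAS2 (ENSG00000170485, chromosome 2 from 100820139 to 100996829) was at 8.01, 7.25 and 4.16 FPKM in the NC libraries and at 7.79, 7.06 and 6.85 FPKM in the others. Its groups overlapped, with a log2 fold change of 0.09 (SE 0.20, adjusted p = 0.790) and of -0.10 without NC library 3 (SE 0.07, adjusted p = 0.243).

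DBP (ENSG00000105516, chromosome 19 from 48630030 to 48637379), whose own promoter region is a textbook target of CLOCK and BMAL1, was the lowest of the 10 genes in both groups. It was at 0.67, 1.03 and 0.75 FPKM in the NC libraries and at 0.4, 0.76 and 0.63 FPKM in the others, on 48 to 74 and on 32 to 62 counts. The groups overlapped. For DBP the log2 fold change was -0.53 (SE 0.29, adjusted p = 0.287), and -0.53 again without NC library 3 (SE 0.26, adjusted p = 0.128). Its standard error was the largest of the 10 genes without NC library 3. SPHK2 shares 688 bases with DBP on the opposite strand and had 122 to 186 counts.

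**Figure D3:**
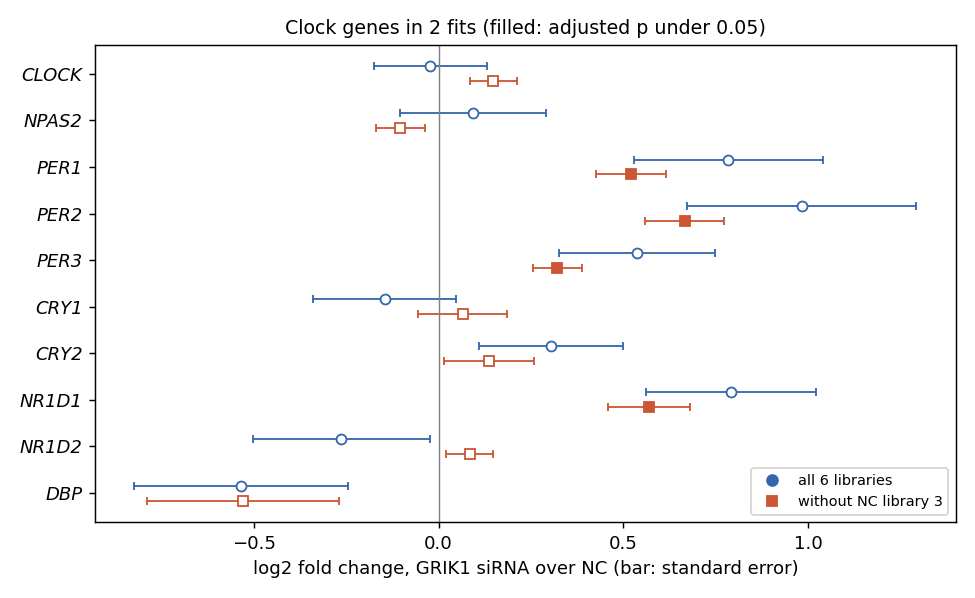
Log2 fold changes of the 10 clock genes, GRIK1 siRNA over NC, with their standard errors from edgeR, with all 6 libraries (blue circles) and without NC library 3 (red squares). Filled symbols have an adjusted p under 0.05, which holds for PER1, PER2, PER3 and NR1D1 without NC library 3 and for no gene with all 6.

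In the libraries labelled GRIK1 siRNA the mean levels ran from NR1D2 (14.1 ± 0.554 FPKM, SD, n = 3) and NR1D1 (12.3 ± 1.59), whose ranges overlapped, to PER3 (8.11 ± 0.21), NPAS2 (7.23 ± 0.493), CLOCK (6.24 ± 0.231) and PER1 (4.95 ± 0.222). CRY1 (3.65 ± 0.407) and PER2 (3.37 ± 0.0351) overlapped each other, and CRY2 (2.61 ± 0.243) and DBP (0.597 ± 0.182) followed. In the NC libraries only NR1D2 (15.6 ± 4.51 FPKM) stood clear of its neighbour in the order. From NR1D1 (6.77 ± 2.32) through NPAS2 (6.47 ± 2.04), CLOCK (5.93 ± 0.67), PER3 (5.34 ± 1.79), CRY1 (3.76 ± 0.598), PER1 (2.76 ± 1.11), CRY2 (2.01 ± 0.574) and PER2 (1.65 ± 0.779) to DBP (0.817 ± 0.189), each gene overlapped the next.

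NC library 3 was the lowest of the 6 libraries on normalized CPM for 6 of the 10 clock genes, where it was for 36.3% of all genes, and the highest for 3, where it was for 35.5%. Against the mean of NC libraries 1 and 2 in FPKM, it was at 0.364 for PER2, 0.443 for PER1, 0.506 for NR1D1, 0.515 for PER3, 0.545 for NPAS2 and 0.592 for CRY2. For NR1D2 it was at 1.6, for CRY1 at 1.29 and for CLOCK at 1.21. The libraries labelled GRIK1 siRNA were, in the mean, at 1.61 of NC libraries 1 and 2 for PER2, 1.46 for PER1, 1.51 for NR1D1 and 1.27 for PER3, so that NC library 3 was farther from the other NC libraries in ratio than they were for each of these genes. Across the 6 libraries the Pearson correlation on log2 CPM was 0.991 to 0.997 among the 3 PER genes and 0.968 to 0.976 between them and NR1D1, while that of CLOCK with NPAS2 was -0.956 and that of NPAS2 with NR1D2 was -0.988. These correlations share the position of NC library 3.

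Among all genes tested, those with the highest Pearson correlation on log2 CPM over the 6 libraries were ENO1, GNRH1 and SEC61A1 for NR1D1 (0.9974 to 0.9984), DNMT3B, KDM2A and UBP1 for PER2 (0.9991 to 0.9992), and SMPD4BP, MSN and CRYBB2P1 for PER1 (0.9989 to 0.9996). SMPD4BP and CRYBB2P1 are pseudogenes, whose reads the counting could share with their parent genes. None of the 9 is one of the clock pathway genes examined here, and each had a positive log2 fold change, from 0.26 for UBP1 to 1.27 for GNRH1. These correlations are the highest picked from 15870 genes over only 6 libraries. They too share the position of NC library 3, which was the lowest library for 36.3% of all genes. Shared regulation was not tested.

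The wider pathway was read from a list of 39 other clock genes, of which 35 passed the filter on low values. The other 4 had at most 0.09 FPKM in any library. With all 6 libraries 1 of 35 was called, PPARGC1A, and it was lower, where 3.09% of all genes were called. Without NC library 3, 10 of 35 were called higher and 10 lower, where 16.9% and 18.3% of all genes were, and the median log2 fold change of the 35 was -0.01. On normalized CPM 10 of the 35 had the libraries labelled GRIK1 siRNA above all NC libraries, where 19.4% of all genes did. Another 10 of the 35 had them below all NC libraries. Separation in either direction held for 38.5% of all genes, a share that compares with both sets of 10 and not with 1 set alone. The difference from these shares was not tested.

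Of the partners of CLOCK and NPAS2, ARNTL, the symbol in the table for BMAL1, had a log2 fold change of 0.01 (SE 0.14, adjusted p = 0.966), and -0.02 without NC library 3 (adjusted p = 0.920). It was at 2.21, 2.35 and 1.87 FPKM in the NC libraries and at 2.39, 2.07 and 2.4 FPKM in the others. Its paralog ARNTL2 was at 7.22, 7.41 and 13.6 FPKM in the NC libraries and at 5.58, 5.79 and 5.91 FPKM in the others, below each NC library. The log2 fold change of ARNTL2 was -0.83 (SE 0.29, adjusted p = 0.145), and -0.37 without NC library 3 (SE 0.07, adjusted p = 0.000881). The receptor RORA, an activator of BMAL1, had -0.05 (adjusted p = 0.853), and 0.09 without NC library 3 (adjusted p = 0.402). Of the D-box factors, the repressor NFIL3 had -0.28 (adjusted p = 0.313), and -0.09 without NC library 3 (adjusted p = 0.315). The activator TEF had -0.04 (adjusted p = 0.852), and -0.01 without NC library 3 (adjusted p = 0.943).

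Of the 4 repressors of E-box activity, 1 was called higher and 2 lower without NC library 3, in a fit that called 16.9% of all genes higher and 18.3% lower. BHLHE41, or DEC2, was at 27.1, 24.7 and 12.7 FPKM in NC libraries 1, 2 and 3 and at 11, 11.7 and 10.4 FPKM in the others. All of the latter lay below NC library 3, the lowest NC library. Its log2 fold change was -1.03 (SE 0.23, adjusted p = 0.0606), and -1.26 without NC library 3 (SE 0.07, adjusted p = 5.31e-10). Its paralog BHLHE40, or DEC1, went the other way, from 75.1, 72 and 42.1 FPKM to 92.4, 89.8 and 86.3 FPKM, with a log2 fold change of 0.44 (adjusted p = 0.194), and 0.26 without NC library 3 (adjusted p = 0.00038). TIMELESS, which in mammals also serves DNA replication forks, had -0.61 (SE 0.14, adjusted p = 0.0629), and -0.67 without NC library 3 (SE 0.11, adjusted p = 0.000172).

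Of the 9 tested kinases, ubiquitin ligases and deubiquitinases that act on PER and CRY proteins, 2 were called higher and 3 lower without NC library 3, against 16.9% and 18.3% of all genes. USP7, which removes ubiquitin from CRY1, had a log2 fold change of 0.56 (adjusted p = 0.0776), and 0.44 without NC library 3 (adjusted p = 4.79e-06). The casein kinase 2 subunit gene CSNK2A2 had -0.66 (adjusted p = 0.0645) and -0.51 (adjusted p = 0.000175). Its paralog CSNK2A1, named after its values were seen, had 0.20 (adjusted p = 0.331), and 0.29 without NC library 3 (adjusted p = 0.000284). Of the 9 co-regulators, 5 were called higher and 1 lower without NC library 3, against the same 16.9% and 18.3% of all genes, and the difference from that share was not tested. NCOR1, the corepressor that REV-ERB receptors recruit, had 0.47 (adjusted p = 0.0672) and 0.41 (adjusted p = 1.32e-05), and the methyltransferase KMT2A, a partner of CLOCK, had 0.87 (adjusted p = 0.117) and 0.59 without NC library 3 (adjusted p = 7.74e-07). NONO, which binds PER proteins, had -0.39 (adjusted p = 0.0941) and -0.40 (adjusted p = 2.14e-06).

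Of the 8 output genes, 2 were called higher and 3 lower without NC library 3, where 16.9% and 18.3% of all genes were. PPARGC1A, the coactivator PGC-1α, which also acts on the BMAL1 gene, was at 1.19, 1.22 and 1.0 FPKM in the NC libraries and at 0.46, 0.49 and 0.59 FPKM in the others. Its log2 fold change was -1.23 (SE 0.16, adjusted p = 0.0261), and -1.26 without NC library 3 (SE 0.15, adjusted p = 6.29e-06). In the fits that left out 1 of the other 5 libraries it was not called, and neither was any other gene of the table. NOCT, a rhythmic phosphatase of NADPH, was at 1.26, 0.97 and 1.19 FPKM in the NC libraries and at 2.41, 2.08 and 2.26 FPKM in the others, without overlap. Its log2 fold change was 0.89 (SE 0.21, adjusted p = 0.066), and 0.99 without NC library 3 (SE 0.22, adjusted p = 0.00207). TSC22D3 had 0.38 (adjusted p = 0.142) and 0.47 (adjusted p = 0.000427), and KLF9 had -0.38 (adjusted p = 0.154) and -0.26 (adjusted p = 0.022), both of them genes that glucocorticoids induce.

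**Figure D4:**
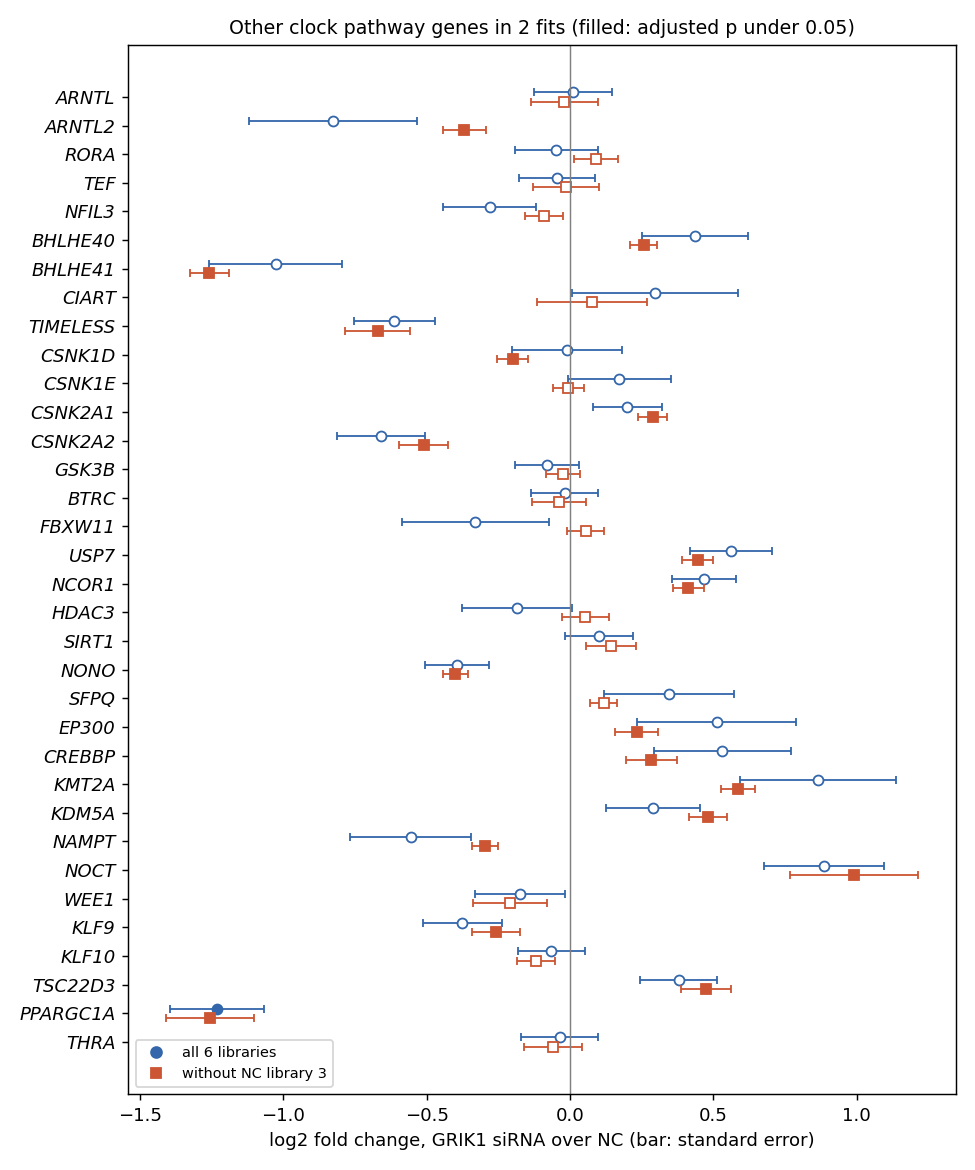
Log2 fold changes of 34 of the 35 other clock pathway genes tested, GRIK1 siRNA over NC, with their standard errors from edgeR, with all 6 libraries (blue circles) and without NC library 3 (red squares). Filled symbols have an adjusted p under 0.05, which with all 6 libraries holds for PPARGC1A and without NC library 3 for 19 of the genes shown, 10 of them higher.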

How the data were processed

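RNA from U87-MG cells was sequenced in 3 NC libraries and 3 libraries labelled GRIK1 siRNA, grouped by sample title. The authors deposited 1 table of 61806 genes with whole-number counts per gene, without normalization, and FPKM values, which the authors scaled to exonic gene size and to the total count. The formula gave 100% of the FPKM values within 0.00501. The submitters' processing notes name cutadapt 1.9.1, HISAT2, HTSeq and GRCh38, and the strand setting and test are not given in the sources used here. Of the annotation columns, the gene symbol, the coordinates with the strand and the exonic gene size were used. Among the columns of values 0 were left unassigned, and 0 entries name no gene.

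The 15870 genes whose FPKM averaged 0.5 or more were tested with the quasi-likelihood test of edgeR 4.0.16 (R 4.3.3), with TMM scaling, no block and Benjamini-Hochberg adjustment. DESeq2 1.42.0, limma 3.58.1 on log2(FPKM + 1) or log2(FPKM + 0.1), other scalings and filters, the replicate number as a block, a robust fit and leaving out each library were alternatives. Combinations without NC library 3 were added after the data were seen. Log2 CPM for correlations used a prior count of 2. The fits with edgeR, DESeq2 and limma were tested on simulated counts, with the same dispersion in every library and no library set apart. The other steps were not tested on simulated data. Libraries of a group differed by more than sampling noise (mean chi-square per gene at least 2.29). Total counts were 11099909 to 14006968. The counting error of a gene depends on its own count in a library, which for DBP was 32 to 74. Promoters were read from RefSeq (GRCh38.p14).

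The genes named are the 10 clock genes, GRIK1, the genes overlapping them, ARNTL and ARNTL2, the called members of the list of 39 with up to 3 more per role by smallest p, and the 3 most correlated genes of the 3 clock genes with the smallest adjusted p. Of the overlapping genes, those with few counts or without a symbol are not described, and some genes of the list are not reported here. The members and lists were chosen with earlier results of these data known. Python 3.11.15, numpy 2.4.6, pandas 2.3.3 and matplotlib 3.10.9 served the other steps.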

Additional observations from a re-analysis of the deposited data

How the results depend on the processing

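The count of called clock genes, 0 of 10 in the fit with all libraries, was 3 without a filter on low values (PER1, PER2 and NR1D1) and 2 with DESeq2 (PER2 and NR1D1), and the cause was not tested. It ran from 0 to 4 when 1 library was left out, with the 4 only without NC library 3. Without that library it was 4 with DESeq2, 4 with limma and 5 with total-count scaling, which added CLOCK. For the other clock pathway genes, 1 was called with all libraries, 6 without a filter, 9 with DESeq2, 0 at a mean FPKM of at least 1 (PPARGC1A, with a mean of 0.825, is then left out), 0 in limma on log2(FPKM + 0.1), and 0 to 20 with 1 library left out. Without NC library 3, DESeq2 and limma called 17 each and total-count scaling 21. Over all genes the count was 490 of 15870 (3.09%), with 1676 (10.6%) in DESeq2 and 280 in limma on log2(FPKM + 0.1). Without a filter it was 1403, over a larger set of genes. With 1 library left out it was 0 to 5591 of the 15870, the 5591 (35.2%) without NC library 3. Without that library, of the same 15870, it was 4210 in DESeq2, 4111 in limma and 5521 with total-count scaling. These counts over all genes are the background for those of the clock genes. With the replicate number as a block, 0 clock genes, 0 other clock pathway genes and 0 genes of the table were called. Deviations from the group means correlated at -0.07, 0.04 and -0.04 between libraries with the same number. NC library 3 dominates these deviations among the NC libraries. Its mean chi-square per gene was 92.5 and 82.5 against NC libraries 1 and 2, where theirs was 2.29 between each other. The check therefore cannot tell whether libraries with the same number shared a culture or a day, and the labels do not say so. The log2 fold changes of PER1 (0.44 to 1.00), PER2 (0.50 to 1.23), PER3 (0.30 to 0.67), NR1D1 (0.54 to 0.93) and CRY2 (0.12 to 0.46) were positive in all 19 fits, and that of DBP (-0.74 to -0.19) was negative in the 18 that tested it. CLOCK, at -0.02, turned to 0.077 with total-count scaling, 0.0049 at a mean FPKM of at least 1, 0.068 in limma on log2(FPKM + 1), 0.079 in limma on log2(FPKM + 0.1), and lay between -0.10 and 0.15 with 1 library left out, with 0.01 without library 1 of those labelled GRIK1 siRNA and 0.15 without NC library 3. Without NC library 3 it was 0.15 in DESeq2, 0.15 in limma and 0.17 with total-count scaling. With 1 library left out, NPAS2 lay between -0.10 and 0.24, CRY1 between -0.27 and 0.065, and NR1D2 between -0.42 and 0.084, each turned against the value with all libraries only without NC library 3. Without that library, in DESeq2, limma and total-count scaling in this order, NPAS2 was at -0.10, -0.068 and -0.077, CRY1 at 0.067, 0.069 and 0.092, and NR1D2 at 0.086, 0.10 and 0.11. The difference in GRIK1 stayed between 0.06 and 0.21 with 1 library left out and was 0.47 with a pseudocount of 0.1. With 1 time point and the phase of the clock not given, the data bear on levels and not on rhythm.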
